A study of Rattus norvegicus with 9 samples.

Results

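The Rab GTPases are the family of small GTP-binding proteins that direct vesicle traffic inside cells. They were chosen here by symbol: every gene that the annotation of the array names Rab followed by a number, with at most a letter and a digit after it, was taken as a member. This gave 54 of the 18166 genes measured with a cluster of 1 symbol, each read from the transcript cluster with the highest mean over the 9 arrays. Rab5a, the best known Rab of early endosomes, has no value, because both of its clusters also carry a second symbol and were left out.

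A Rab cycles between a GDP-bound form held in the cytosol by a GDP dissociation inhibitor (GDI) and a GTP-bound form on a membrane. Exchange factors load GTP, GTPase-activating proteins of the TBC family end the active state, and the active Rab recruits effectors such as tethers and motors that bring a vesicle to its target. Each compartment carries its own Rabs, and in blood they are known for phagosome maturation and granule release in neutrophils, killing by cytotoxic lymphocytes and granule formation in platelets.

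The arrays measured blood RNA of male Sprague-Dawley rats weighing 250 to 280 g, with 3 rats, each on 1 array, in each of 3 groups. The control group had a sham operation. The QDBS group, a rat model of Qi deficiency with blood stasis, swam to exhaustion once a day for 21 days, and the YDBS group, a model of Yin deficiency with blood stasis, was injected daily with 45 mg/kg of hydrocortisone over 13 days and, for 1 further day, with 0.36 mg/kg of epinephrine. Both models then underwent middle cerebral artery occlusion (MCAO), and blood was taken from the abdominal aorta after 24 h of reperfusion. No array measured occlusion alone or pretreatment alone, so the effects of the pretreatment and of the occlusion cannot be told apart. The question of the study was how the blood RNA of the 2 stroke models differs from controls and from each other.

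Values are log2 signals, so a difference of 1 is a 2-fold change. A call needed both an FDR (Benjamini-Hochberg, from limma, over all 18166 genes) under 0.05 and an absolute log2 FC over 1. FC is signed, with a lower level written as a negative number. Both models were compared with the same 3 control arrays, so their results are not independent of each other.

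The blood cell markers were read on all arrays, and several lists moved with the groups. The mean level of 10 natural killer markers was 5.05 to 5.33 in the control group. It was 6.14 to 6.46 in QDBS and 6.11 to 6.46 in YDBS. Of the 10, 5 were called higher in each model (50%), beside 9.62% of all genes in QDBS and 10.4% in YDBS. The mean of 6 platelet markers was 10.80 to 11.03 in the control group, 9.14 to 9.91 in QDBS and 9.61 to 10.58 in YDBS. The mean of 10 neutrophil markers was 7.75 to 8.02 in the control group, 7.27 to 8.19 in QDBS and 8.21 to 8.99 in YDBS. The mean of 10 T cell markers was 7.32 to 7.91, 8.64 to 8.76 and 8.04 to 8.32, and that of 8 B cell markers 6.58 to 7.12, 7.71 to 8.49 and 7.27 to 7.87, in the same order of groups. The mean of 9 monocyte markers was 6.83 to 7.06, 7.31 to 7.53 and 7.42 to 7.56, and that of 7 erythroid markers 7.39 to 7.75, 6.62 to 6.89 and 7.18 to 7.95. A list mean can rest on a few genes. The median log2 FC of the T cell list was 0.72 in QDBS and 0.08 in YDBS, with 3 (30%) and 1 (10%) called higher. That of the monocyte list was -0.02 and 0.04, with 1 (11.1%) and 2 (22.2%) called higher. Of all genes, 9.62% and 10.4% were called higher. The mean of 8 hepatocyte markers, genes of a cell type that blood should lack, was 4.72 to 5.13 in the control group and 3.19 to 3.35 over the model arrays. The part of these shifts in the Rab results was not tested. In bulk blood, fewer cells of a type and less RNA per cell cannot be told apart.

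The Rab genes were up-regulated more often than down-regulated in both models. In QDBS 8 of 54 Rab genes (14.8%) were called higher, against 9.62% of all genes, and 0 were called lower, against 1.36% of all genes. In YDBS 14 of 54 (25.9%) were called higher, against 10.4% of all genes, and 0 were called lower, against 0.919% of all genes. All 8 genes called in QDBS were called in YDBS as well, and 6 were called in YDBS alone. The 8 were Rab1a, Rab7a, Rab8b, Rab9a, Rab10, Rab14, Rab21 and Rab27a, and the 6 were Rab2a, Rab6a, Rab18, Rab24, Rab27b and Rab31. The remaining 40 were called in neither model. At an FDR under 0.05 with no limit on the fold, 15 Rab genes were higher (27.8%) and 9 lower (16.7%) in QDBS, against 20% and 22.9% of all genes. In YDBS 20 were higher (37%) and 8 lower (14.8%), against 20.5% and 25.3%. The lowest model array lay above the highest control array for 17 Rab genes in QDBS (31.5%, against 22.8% of all genes) and for 21 in YDBS (38.9%, against 23.4%). The reverse held for 12 in QDBS (22.2%, against 31.3%) and 8 in YDBS (14.8%, against 33.3%).

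The median log2 FC of the 54 Rab genes was 0.06 in QDBS and 0.12 in YDBS, while that of all genes was -0.15 and -0.16. The size of this gap and the sign of the Rab median depended on the scaling. After quantile normalization the Rab medians were -0.025 in QDBS and 0.11 in YDBS, beside -0.08 and -0.09 for all genes, and after cyclic loess 0.04 and 0.20, beside -0.016 and -0.015. Centring each array on the 75th percentile of its genes, which shifts all genes alike, gave Rab medians of -0.31 and -0.26 and medians of all genes of -0.52 and -0.54. With that centring 5 of 54 Rab genes were higher and 1 of 54 lower in QDBS, against 5.33% and 7.65% of all genes. In YDBS 10 of 54 were higher and 2 of 54 lower, against 5.95% and 9.01%. In QDBS the count of 8 of 54 was 5 without control replicate 2, beside 7.66% of all genes. It was 4 of 54 with the t-test of the methods, beside 6.8% of all genes. In YDBS the count of 14 was the same without any single array. It was 8 of 54 (14.8%) after quantile normalization, beside 8.03% of all genes.

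**Figure D1:**
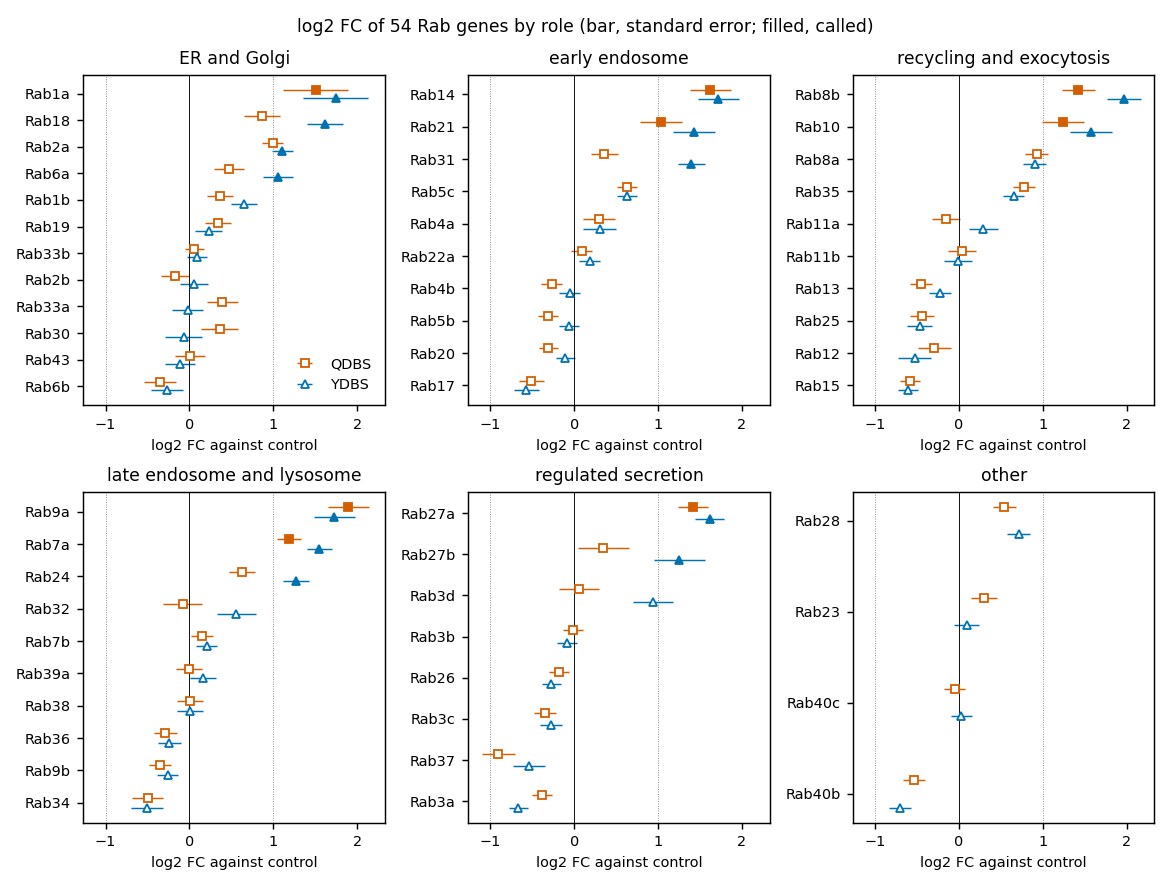
The log2 FC against the control group (x axis) of each of the 54 Rab genes, grouped by role, in QDBS and YDBS, with the SE of limma as bars and filled points for called genes. The called genes lie to the right of 1 in every role except the 4 other Rabs, and no gene lies to the left of -1.

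The signal of the array bears on how these counts read. In both models bright genes tended to be higher and dim genes lower than in the control group, and 27 of the 54 Rab genes lie among the 4542 genes with the highest mean signal. Of these 8 of 27 Rab genes (29.6%) were called higher in QDBS, against 22.4% of the 4542 genes, and 13 of 27 (48.1%) in YDBS, against 24.5%. None of the 27 was called lower in QDBS, against 2.62%, or in YDBS, against 0.903%. With the dimmest 40% of genes set aside, 8 of 43 Rab genes (18.6%) were called higher in QDBS and 14 of 43 (32.6%) in YDBS, against 15.7% and 16.9% of such genes, and 0 were called lower, against 1.79% and 0.991%. The median log2 FC of these 27 was 0.47 in QDBS and 0.94 in YDBS, beside 0.33 and 0.36 for all 4542 genes. Of the other 27 Rab genes, 0 were called in QDBS and 1, Rab18, in YDBS, beside 5.36% and 5.73% of the 13624 genes outside those 4542, with median log2 FC of -0.18 and -0.10. The mean signal includes the model arrays, so a gene that is high there is more likely to be counted as bright. The split by signal was made after the values were seen.

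**Figure D2:**
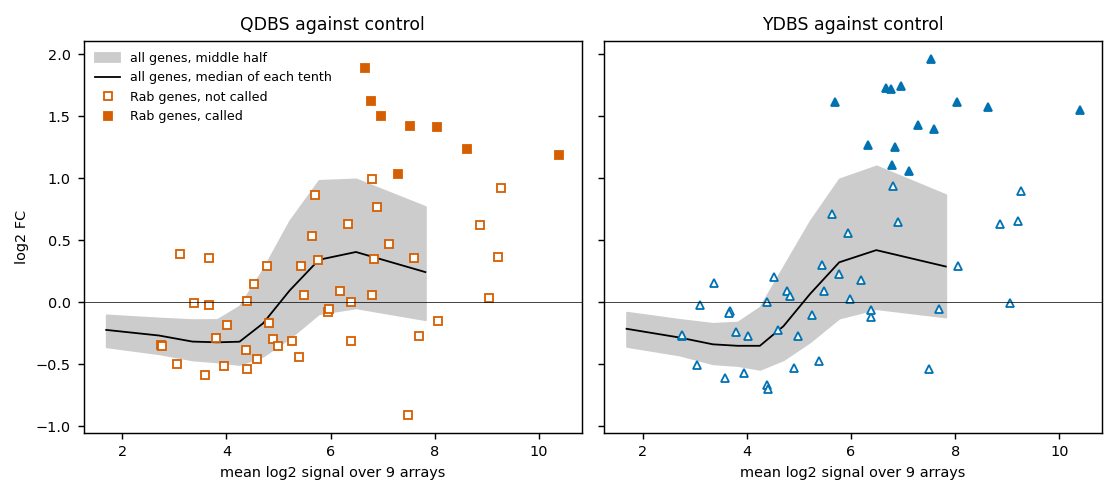
The log2 FC (y axis) of each Rab gene against its mean log2 signal over 9 arrays (x axis) in QDBS and YDBS, over the median and the middle 50% of all genes in each of 10 equal bins of signal. In the brightest bin the median of the 14 Rab genes was 0.55 in QDBS and 0.98 in YDBS, beside 0.24 and 0.29 for all genes, and the dim Rab genes lie near or below 0.

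The Rabs of late endosomes and lysosomes included the largest change in QDBS. Rab9a, which returns mannose 6-phosphate receptors from late endosomes to the Golgi, read 5.76, 5.26 and 5.34 on the control arrays, 7.11, 7.14 and 7.79 on the QDBS arrays and 6.68, 7.41 and 7.46 on the YDBS arrays. Every model array was above every control array, and the 2 models overlapped. Rab9a rose 3.71-fold in QDBS (log2 FC 1.89, SE 0.25, limma FDR = 0.000187) and 3.31-fold in YDBS (log2 FC 1.73, SE 0.25, limma FDR = 0.000312). Rab7a, the Rab that drives fusion of late endosomes and phagosomes with lysosomes, read 9.59, 9.17 and 9.67 in the control group, 10.68, 10.53 and 10.77 in QDBS and 10.99, 11.02 and 11.07 in YDBS. The 3 groups did not overlap, and the YDBS arrays were the highest. Rab7a rose 2.27-fold in QDBS (limma FDR = 0.00012) and 2.92-fold in YDBS (limma FDR = 1.92e-05), the lowest FDR of any Rab gene. Rab24, which takes part in autophagy, rose 2.41-fold in YDBS (limma FDR = 0.000121), with arrays at 6.67, 6.99 and 7.23 against 5.63 to 5.78 in the control group. In QDBS its arrays were also above the control arrays, at 6.14, 6.32 and 6.51, but the log2 FC of 0.63 was under the limit (limma FDR = 0.00891). The other 7 members of the group, Rab7b, Rab9b, Rab32, Rab34, Rab36, Rab38 and Rab39a, were called in neither model and had log2 FC between -0.51 and 0.56.

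Among the Rabs of early endosomes, 2 of 10 were called higher in QDBS and 3 of 10 in YDBS, beside 9.62% and 10.4% of all genes. Rab14, which works between early endosomes and the Golgi and on phagosomes, read 6.04, 4.95 and 6.0 in the control group, 7.24, 7.16 and 7.44 in QDBS and 7.33, 7.44 and 7.36 in YDBS. The model arrays lay close together and above all control arrays, of which replicate 2 was the lowest. Rab14 rose 3.08-fold in QDBS (log2 FC 1.62, SE 0.24, limma FDR = 0.00049) and 3.29-fold in YDBS (log2 FC 1.72, SE 0.24, limma FDR = 0.000311). Rab21, which carries integrins through endosomes, read 6.79, 5.75 and 6.84 in the control group, 7.55, 7.33 and 7.62 in QDBS and 7.91, 8.05 and 7.72 in YDBS. The 3 groups did not overlap, and control replicate 2 was again the lowest array. Rab21 rose 2.70-fold in YDBS (limma FDR = 0.00116) and 2.05-fold in QDBS (limma FDR = 0.00765), where its log2 FC of 1.04 was the nearest above the limit. Rab31, which serves traffic between the Golgi and endosomes, rose in YDBS and is described with the difference between the models. Rab5c, a paralogue of Rab5a, was higher at a limma FDR of 0.00198 in QDBS and 0.00172 in YDBS, with a log2 FC of 0.62 and 0.63, under the limit for a call. The remaining members, Rab4a, Rab4b, Rab5b, Rab17, Rab20 and Rab22a, had log2 FC between -0.57 and 0.30. Rab17, an epithelial Rab, had the lowest of them, with a log2 FC of -0.51 in QDBS and of -0.57 in YDBS (limma FDR = 0.0198 and 0.0113).

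The Rabs of the endoplasmic reticulum (ER) and the Golgi differed most in count between the models, with 1 of 12 called higher in QDBS (8.33%, beside 9.62% of all genes) and 4 of 12 in YDBS (33.3%, beside 10.4%). The difference in count was not tested. Rab1a, which moves vesicles from the ER to the Golgi, read 6.84, 4.76 and 6.06 in the control group, 7.51, 7.13 and 7.53 in QDBS and 7.58, 7.71 and 7.59 in YDBS. The control arrays spread over more than 2 log2 units (SD 1.05), the widest of any Rab gene in that group, and all of them lay below the model arrays. Rab1a rose 2.84-fold in QDBS (SE of log2 FC 0.39, limma FDR = 0.0109) and 3.35-fold in YDBS (SE 0.39, limma FDR = 0.00485). Rab18, a Rab of the ER and of lipid droplets, read 4.96, 4.71 and 4.95 in the control group, 5.75, 5.30 and 6.16 in QDBS and 6.13, 6.70 and 6.62 in YDBS. The control arrays were the lowest, and the models overlapped by 1 array each. It rose 3.05-fold in YDBS (log2 FC 1.61, SE 0.22, limma FDR = 0.00021), while the log2 FC of 0.86 in QDBS was under the limit (limma FDR = 0.00901). Rab2a, which acts between the ER and the Golgi, read 6.22, 5.89 and 6.17 in the control group, 7.06, 7.01 and 7.18 in QDBS and 7.14, 7.27 and 7.19 in YDBS. Both models lay above the control group and overlapped each other. Its log2 FC was 1.11 in YDBS (limma FDR = 5.91e-05), a call, and 0.99 in QDBS (limma FDR = 0.00014), the nearest below the limit, and the difference between the models was not called (log2 FC -0.12, limma FDR = 0.894). Rab6a, a Rab of retrograde traffic at the Golgi, read 6.72, 6.28 and 6.81 in the control group, 7.08, 6.84 and 7.31 in QDBS and 7.78, 7.75 and 7.45 in YDBS. The 3 groups were ordered without overlap. Its log2 FC of 1.06 in YDBS (limma FDR = 0.000833) was the nearest above the limit there, and the call was lost without control replicate 2, without YDBS replicate 1 and under 3 of the scalings. The other 8, Rab1b, Rab2b, Rab6b, Rab19, Rab30, Rab33a, Rab33b and Rab43, were not called and had log2 FC between -0.35 and 0.65.

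Of the 10 Rabs of recycling and exocytosis, Rab8b and Rab10 were called higher in both models. Rab8b, which carries vesicles from the Golgi to the plasma membrane, read 6.50, 6.0 and 6.70 in the control group, 7.89, 7.53 and 8.05 in QDBS and 8.33, 8.59 and 8.17 in YDBS. The 3 groups did not overlap. Rab8b rose 2.68-fold in QDBS (log2 FC 1.42, SE 0.20, limma FDR = 0.00032) and 3.90-fold in YDBS (log2 FC 1.97, SE 0.20, limma FDR = 3.28e-05), the largest change of any Rab gene there. Rab10, known for bringing glucose transporters to the cell surface, read 8.08, 7.0 and 7.96 in the control group, 8.94, 8.62 and 9.21 in QDBS and 9.26, 9.32 and 9.19 in YDBS. The model arrays lay above all control arrays, of which replicate 2 was the lowest. Rab10 rose 2.36-fold in QDBS (limma FDR = 0.00306) and 2.97-fold in YDBS (limma FDR = 0.000679). Rab8a and Rab35, a Rab of fast recycling from endosomes, were higher at limma FDR of 0.000468 and 0.000982 in QDBS and 0.000506 and 0.00256 in YDBS, but their log2 FC of 0.93 and 0.77 in QDBS and 0.90 and 0.65 in YDBS stayed under the limit. Rab11a, the classic Rab of recycling endosomes, had a log2 FC of -0.15 in QDBS and of 0.29 in YDBS with limma FDR of 0.469 and 0.176. Rab15 and the epithelial Rab25 were lower in both models at an FDR under 0.05 and under the fold limit, with log2 FC of -0.58 and -0.44 in QDBS and -0.61 and -0.47 in YDBS. Rab11b, Rab12 and Rab13 had log2 FC between -0.53 and 0.04.

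Of the 8 Rabs of regulated secretion, 1 was called higher in QDBS (12.5%) and 2 in YDBS (25%), beside 9.62% and 10.4% of all genes. None was called lower. At an FDR under 0.05 with no limit on the fold, 1 was higher and 2 lower in QDBS, beside 20% and 22.9% of all genes. In YDBS 3 were higher and 2 lower, beside 20.5% and 25.3%. Rab27a, which docks lytic granules in cytotoxic lymphocytes and is lost in human Griscelli syndrome, read 7.34, 6.98 and 6.76 in the control group, 8.35, 8.36 and 8.63 in QDBS and 8.36, 8.81 and 8.76 in YDBS. All model arrays lay above the control arrays, and the models overlapped. Rab27a rose 2.67-fold in QDBS (log2 FC 1.42, SE 0.18, limma FDR = 0.000141) and 3.06-fold in YDBS (log2 FC 1.61, SE 0.18, limma FDR = 5.25e-05). Of the 10 natural killer markers, 5 were called higher in each model, beside 9.62% and 10.4% of all genes. They were Klrk1, Ncr1, Prf1, Klrd1 and Gzma. Among the granule proteins on that list, Prf1 and Gzma were called, with log2 FC of 1.4 and 2.45 in QDBS and of 1.31 and 2.61 in YDBS, and Gzmb, at 0.75 and 0.89, was not. The part of these markers in the Rab27a result was not tested. Rab27b, its paralogue and a Rab of platelet granules, read 6.30, 6.44 and 6.17 in the control group, 7.16, 5.96 and 6.83 in QDBS and 7.88, 7.82 and 6.96 in YDBS. The QDBS arrays overlapped both other groups, and the YDBS arrays lay above the control arrays. Rab27b rose 2.38-fold in YDBS (limma FDR = 0.00716) and had a log2 FC of 0.35 in QDBS (limma FDR = 0.355). A dimmer cluster of Rab27b, not used for the test, read 5.84, 5.83 and 6.63 in the control group, 6.75, 5.74 and 6.52 in QDBS and 7.49, 7.96 and 7.02 in YDBS. It had the same order of YDBS over control. Rab37, a Rab of secretory granules in mast cells, read 7.95, 7.93 and 8.04 in the control group, 7.25, 6.8 and 7.16 in QDBS and 7.69, 7.65 and 6.96 in YDBS. All model arrays were below the control arrays. The log2 FC of -0.91 in QDBS (SE 0.19, limma FDR = 0.00407) was the lowest of any Rab gene and short of a call, and that in YDBS was -0.54 (limma FDR = 0.0414). It was called lower in QDBS with arrays centred on the 75th percentile, after quantile normalization and after cyclic loess. Rab3a, the Rab of synaptic vesicles, had log2 FC of -0.38 and -0.67 (limma FDR = 0.0225 in QDBS and 0.00114 in YDBS), also not called. In its bin of signal the median log2 FC of all genes was -0.32 in QDBS and -0.35 in YDBS. Rab3b, Rab3c and Rab26 had log2 FC between -0.35 and -0.02, and Rab3d is described with the difference between the models.

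The 4 other Rabs were called in neither model. Rab28, known for its place in cilia, had a log2 FC of 0.54 in QDBS and of 0.71 in YDBS (limma FDR = 0.0102 and 0.00211). Rab40b, part of a ubiquitin ligase, had log2 FC of -0.54 and -0.70 (limma FDR = 0.00706 and 0.00148). Rab40c and Rab23, a Rab of Hedgehog signalling, had log2 FC between -0.05 and 0.30.

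**Figure D3:**
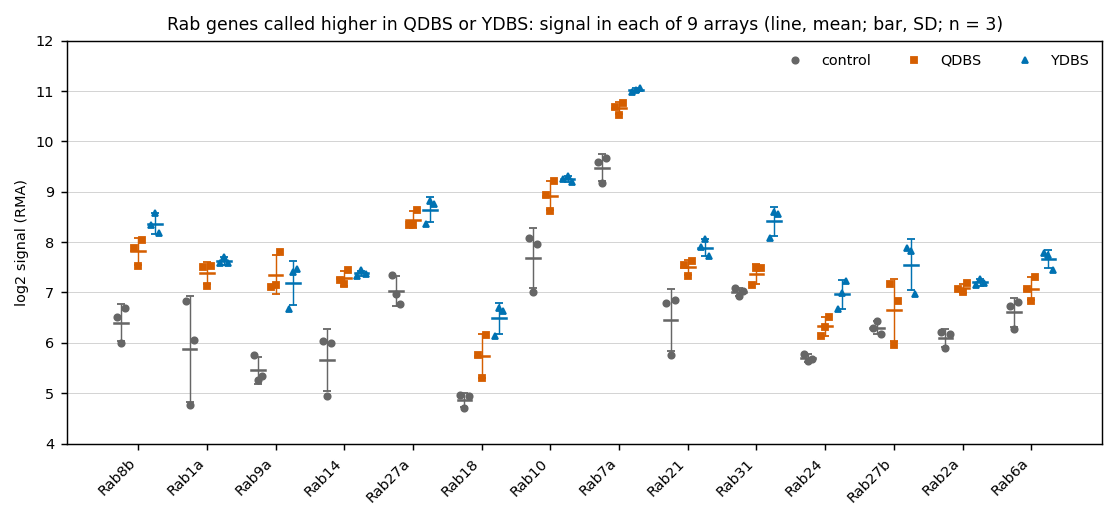
The log2 signal (y axis) of Rab genes called higher in at least 1 model, as points for the 3 arrays of each group with a line for the mean and a bar for the SD. The model arrays lie above the control arrays for all genes shown except Rab27b in QDBS, and the lowest control point is replicate 2 for most of them.

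Control replicate 2 was the lowest control array for 12 of the 14 called Rab genes (85.7%), for 27 of all 54 and for 40.3% of all genes. Without it Rab1a, Rab10 and Rab21 were no longer called in QDBS, and in YDBS the count remained 14, with Rab3d called and Rab6a not. The median SD over the 54 genes was 0.18 in the control group, 0.17 in QDBS and 0.12 in YDBS. The highest SD was 0.62 in QDBS, for Rab27b, and 0.57 in YDBS, for Rab3d, and an SD over 0.4 was found for 6 genes in the control group, 3 in QDBS and 5 in YDBS.

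The promoters of members on which the results turn are shown to give the sequence context of Rab9a, the largest change in QDBS, of Rab8b, the largest in YDBS, and of Rab31, the member called between the models. Each is a window of RefSeq on the rat build GRCr8, from 250 bases before to 50 after the gene start, 5′ to 3′ on the strand of the gene, with the letters GGGCGG or their reverse complement CCGCCC, the core of a GC box, in capitals. Rab9a lies on the plus strand at chrX:31609839-31610138, Rab8b on the minus strand at chr8:76417499-76417798 and Rab31 on the minus strand at chr9:112828043-112828342.
Rab9a: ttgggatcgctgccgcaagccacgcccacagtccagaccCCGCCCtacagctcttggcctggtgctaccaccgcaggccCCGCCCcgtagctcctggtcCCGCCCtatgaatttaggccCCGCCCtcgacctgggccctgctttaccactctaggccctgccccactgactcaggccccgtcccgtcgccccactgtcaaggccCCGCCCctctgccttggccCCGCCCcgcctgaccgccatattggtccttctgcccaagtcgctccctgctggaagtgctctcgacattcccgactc
Rab8b: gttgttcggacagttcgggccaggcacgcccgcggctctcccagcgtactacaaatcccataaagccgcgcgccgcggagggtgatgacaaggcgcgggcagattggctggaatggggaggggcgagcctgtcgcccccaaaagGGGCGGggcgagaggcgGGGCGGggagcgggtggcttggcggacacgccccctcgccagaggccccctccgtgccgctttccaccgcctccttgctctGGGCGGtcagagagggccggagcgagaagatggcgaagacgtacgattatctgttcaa
Rab31: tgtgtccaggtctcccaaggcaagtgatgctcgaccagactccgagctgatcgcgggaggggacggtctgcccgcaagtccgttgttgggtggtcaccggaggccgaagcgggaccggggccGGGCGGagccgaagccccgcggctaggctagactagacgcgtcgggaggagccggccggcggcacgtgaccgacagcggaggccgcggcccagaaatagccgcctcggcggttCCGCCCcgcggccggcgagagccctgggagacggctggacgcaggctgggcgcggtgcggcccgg
The motif was found 6 times in Rab9a, 3 times in Rab8b and 2 times in Rab31. It occurs on either strand in 34 of the 43 Rab promoters with a window (79.1%) and in 36.0% of 27457 promoters of the same length. It was in all 8 promoters of genes called in both models and in 24 of 31 of genes called in neither (77.4%), so it is common in this family whether or not a gene was called. The E-box CACGTG, the same on both strands, was in 3 Rab promoters (6.98%), those of Rab20, Rab21 and Rab31, and in 7.08% of all. The consensus of the glucocorticoid response element, searched on both strands because the YDBS rats received hydrocortisone, was in 1 Rab promoter, that of Rab17 (2.33%), and in 0.459% of all. The motifs were chosen after the values were seen, and a match only describes the letters of the window.

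Calls were compared in 12 pairs of close paralogues picked by hand. Left out were, among others, Rab33a with Rab33b and Rab40b with Rab40c, none of them called in either model. In QDBS exactly 1 member was called in 5 pairs and neither in 7, while 14.8% of all 54 Rab genes were called. In YDBS exactly 1 was called in 6 pairs, both in 1 (Rab27a and Rab27b) and neither in 5, while 25.9% of the 54 were called. No expected share of such pairs was computed. Rab9b read 3.02, 3.16 and 2.72 in the control group, 2.67, 2.57 and 2.60 in QDBS and 2.66, 2.72 and 2.74 in YDBS. Its QDBS arrays lay below all control arrays (log2 FC -0.35, limma FDR = 0.0451). Its YDBS arrays overlapped them (log2 FC -0.26, limma FDR = 0.114). The signs were opposite to those of Rab9a, but Rab9b is among the dimmest 40% of genes. In its bin of signal the median log2 FC of all genes was -0.27 in QDBS and -0.28 in YDBS. Rab7b read 4.55, 4.48 and 4.21 in the control group, 4.47, 4.67 and 4.55 in QDBS and 4.55, 4.70 and 4.60 in YDBS. The groups overlapped, with log2 FC of 0.15 and 0.20. Rab1b, the partner of Rab1a, read 9.01, 8.73 and 8.87 in the control group, 9.0, 9.56 and 9.14 in QDBS and 9.46, 9.49 and 9.62 in YDBS. It lay above the control group in YDBS (log2 FC 0.65, limma FDR = 0.0061) under the fold limit, and overlapped it in QDBS (log2 FC 0.36, limma FDR = 0.0755). Rab8a read 8.76, 8.51 and 8.71 in the control group, 9.44, 9.83 and 9.48 in QDBS and 9.44, 9.61 and 9.64 in YDBS. Both models lay above the control group, so Rab8a and Rab8b were higher together and only Rab8b passed the fold limit. Rab2b read 4.99, 4.90 and 4.69 in the control group, 4.35, 4.85 and 4.87 in QDBS and 5.12, 4.85 and 4.77 in YDBS. Rab6b read 5.01, 5.01 and 5.55 in the control group, 5.03, 4.94 and 4.57 in QDBS and 4.68, 4.91 and 5.19 in YDBS. Both overlapped the control group in both models, unlike Rab2a and Rab6a. The mean signals of Rab7b, Rab2b and Rab6b lay at percentiles 51.3, 57.5 and 60.8 of all genes. Those of Rab7a, Rab2a and Rab6a lay at 99.6, 88.1 and 90.9. The part of signal in these differences was not tested. The differences between paralogues were not themselves tested, and whether probes of one paralogue read RNA of the other was not tested.

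**Figure D4:**
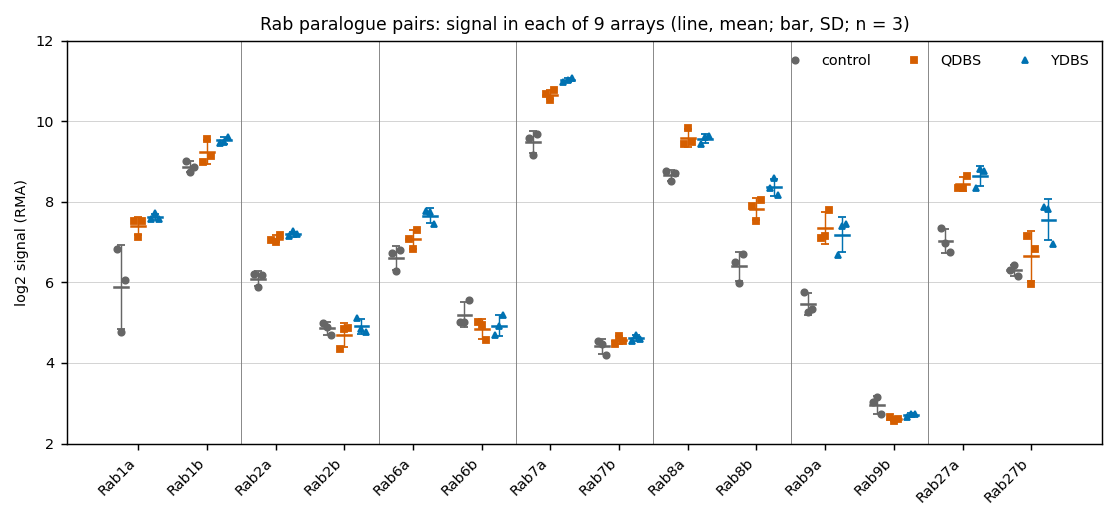
The log2 signal (y axis) of both members of 7 paralogue pairs, with points for the 3 arrays of each group, a line for the mean and a bar for the SD. The model arrays of Rab9a and Rab7a lie above the control arrays, those of Rab7b overlap them, and those of Rab9b lie below them in QDBS. Levels are to be compared between groups and not between genes.

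Between the models 1 of 54 Rab genes (1.85%) was called lower in QDBS than in YDBS, against 0.33% of all genes, and 0 were called higher, against 0% of all genes. At an FDR under 0.05 with no limit on the fold the counts were 1 lower and 0 higher as well, against 0.446% and 0.011% of all genes. The called gene was Rab31, which read 7.09, 6.93 and 7.02 in the control group, 7.14, 7.49 and 7.48 in QDBS and 8.08, 8.6 and 8.55 in YDBS. The YDBS arrays lay above all others, and the QDBS arrays lay just above the control arrays. Rab31 rose 2.63-fold in YDBS (log2 FC 1.4, SE 0.16, limma FDR = 7.26e-05), had a log2 FC of 0.36 in QDBS (limma FDR = 0.0908), and was lower in QDBS than in YDBS by FC -2.06 (log2 FC -1.04, SE 0.16, limma FDR = 0.0322). This call was lost under 9 of 20 alternatives, among them the removal of any of 6 single arrays, with log2 FC from -1.21 to -0.93 and an FDR of up to 0.351.

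The next largest differences did not pass the test. Rab27b had a log2 FC of QDBS against YDBS of -0.90 (SE 0.30, limma FDR = 0.258). Rab3d, a Rab of secretory granules, read 6.30, 6.69 and 6.40 in the control group, 6.54, 6.35 and 6.67 in QDBS and 6.75, 7.73 and 7.75 in YDBS. The YDBS arrays lay above both other groups, replicate 1 only just, and the QDBS and control arrays overlapped. Its log2 FC was -0.89 between the models (SE 0.24, limma FDR = 0.147), 0.94 in YDBS against the control group (limma FDR = 0.0096), the nearest below the fold limit there, and 0.06 in QDBS (limma FDR = 0.857). Without YDBS replicate 1, Rab3d was called between the models (log2 FC -1.21, limma FDR = 0.0185). Of the 6 genes called in YDBS alone, Rab31 was thus the single one for which the difference between the models was called, and the others had log2 FC of QDBS against YDBS between -0.90 and -0.12. All QDBS arrays lay below all YDBS arrays for 10 Rab genes (18.5%, against 8.65% of all genes) and above them for 3 (5.56%, against 9.79%). The median log2 FC of QDBS against YDBS was -0.09 over the Rab genes and 0.02 over all genes.

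**Figure D5:**
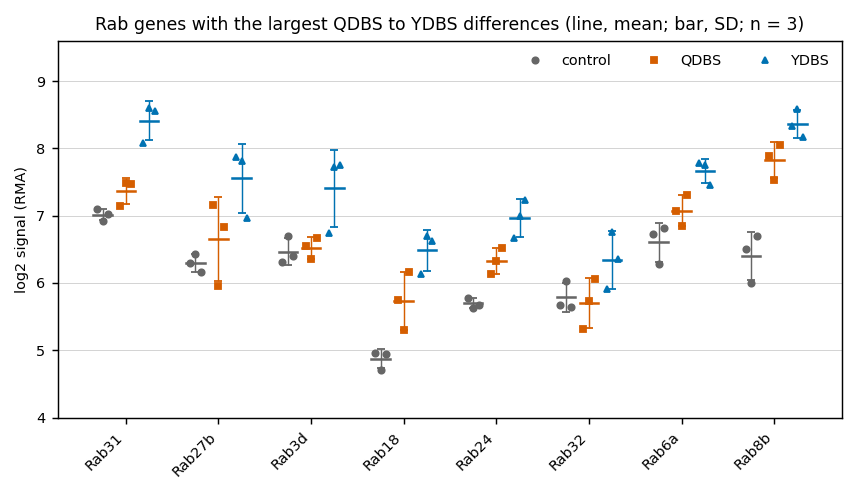
The log2 signal (y axis) of the 8 Rab genes with the largest differences between QDBS and YDBS, with points for the 3 arrays of each group, a line for the mean and a bar for the SD. The YDBS arrays of Rab31 (8.08 to 8.6) lie above its QDBS arrays (7.14 to 7.49) and control arrays (6.93 to 7.09).

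Rab31 was lower in QDBS than in YDBS, and the lists of blood cell markers differed in direction in the same comparison. Of the 10 neutrophil markers, 2 were called lower in QDBS than in YDBS, Csf3r (log2 FC -1.03) and Cxcr2 (log2 FC -1.27), against 0.33% of all genes, and the median log2 FC of the list was -1.05. The median was -0.79 over 7 erythroid markers and -0.57 over 6 platelet markers, with 0 called in either list, although all members of both had a negative log2 FC. It was 0.60 over 10 T cell markers and 0.60 over 8 B cell markers, with 0 called. Over 9 monocyte markers the median was -0.06 and over 10 natural killer markers -0.02, with 0 called. Against the control group, 6 of the 10 neutrophil markers were called higher and 2 lower in YDBS, beside 10.4% and 0.919% of all genes. In QDBS 0 were called higher and 4 lower, beside 9.62% and 1.36%. The part of these cells in the Rab31 result was not tested.

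The genes that run the Rab cycle were measured as well, on lists written from textbook knowledge. Over 123 such genes, 23 were called higher in QDBS (18.7%) and 28 in YDBS (22.8%), beside 9.62% and 10.4% of all genes, and 0 were called lower in either. With arrays centred on the 75th percentile the counts were 14 and 12, beside 5.33% and 5.95% of all genes. In the list of escort, prenylation and GDI genes, 3 of 7 rose in both models (42.9%), beside 9.62% and 10.4% of all genes. Gdi2, the widely expressed GDI, had a log2 FC of 2.34 in QDBS and of 2.54 in YDBS, Chm, the escort protein that presents new Rabs for prenylation, 2.24 and 2.12, and Rabif, a Rab-binding chaperone, 1.42 and 1.36. Of 37 effectors, 8 rose in QDBS (21.6%) and 11 in YDBS (29.7%), beside 9.62% and 10.4% of all genes. The median log2 FC of the 37 was -0.007 in QDBS and 0.02 in YDBS. At an FDR under 0.05 with no limit on the fold, 5 were lower in each model (13.5%), beside 22.9% and 25.3% of all genes. The motor Myo5a, which Rab27a recruits through an adaptor in pigment cells, had log2 FC of 2.00 and 2.33, the Golgi tether Golga5 1.97 and 2.22, and Uso1, the tether recruited by Rab1, 1.71 and 1.86. Eea1, the endosomal tether bound by Rab5, had a log2 FC of 1.55 in QDBS and of 2.06 in YDBS.

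Of the TBC proteins and the Rab3 GTPase-activating complex, which switch Rabs off, 4 of 35 were called higher in QDBS (11.4%) and 6 in YDBS (17.1%), the former near the 9.62% of all genes and the latter beside 10.4%. Rabgap1 had log2 FC of 1.68 and 1.55 and Tbc1d15, which acts on Rab7 in human cells, 1.63 and 1.83. Of the 25 exchange factors, 3 were called higher in each model (12%), near the 9.62% and 10.4% of all genes. Ccz1, a subunit of the exchange factor of Rab7, had log2 FC of 1.27 and 1.46, and Ric1, part of that of Rab6, 1.28 and 1.2. Rab3ip, the exchange factor of Rab8, had 1.33 in QDBS, where it was called, and Dennd5a had 1.03 in YDBS, where it was called. Of 12 subunits of TRAPP, the complex that activates Rab1, 4 were called higher in each model (33.3%), beside 9.62% and 10.4% of all genes. They were Trappc6b, Trappc8, Trappc11 and Trappc13 in both models, with log2 FC between 1.16 and 1.59. The 8 not called had log2 FC between -0.34 and 0.23. Among them, Trappc6a was lower at an FDR under 0.05 in both models. Of 7 subunits of the lysosomal and endosomal tethers HOPS and CORVET, 1 was called higher in each model (14.3%), beside 9.62% and 10.4% of all genes. It was Vps41, which binds Rab7 through its complex, with log2 FC of 1.61 and 1.52. Among other small GTPases, 0 of 16 of the Arf family were called in either model.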

How the data were processed

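RNA was labelled with biotin and hybridised to Affymetrix Rat Gene 2.0 ST arrays. The authors processed the arrays with RMA in Affymetrix Expression Console 1.1 and deposited log2 values of 30347 clusters, which were used as deposited. The settings of RMA are not given in the sources used here, and the distributions of the deposited values differ between groups. RMA gives no detection calls. Precision is limited by the number of arrays. Array medians were 4.15 to 4.21 in the control group and 3.94 to 4.05 in the models, and 75th percentiles of the genes 5.46 to 5.62 and 5.86 to 6.0. The annotation listed 19086 clusters, of which 18511 carried 1 symbol and 575 with several were left out. The brightest cluster of each gene was used.

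The model, fitted to all 9 arrays together with a mean for each of the 3 groups, was run with limma 3.58.1 (R 4.3.3) after it was checked on simulated data. The members, the lists and the rule for named genes were chosen with earlier results of these data known. By that rule, arrays are printed for the 8 called members that rose most in each model, members called or with the 3 largest differences between the models, members next to the fold limit, and paralogues of called members. Rab24 and Rab37 were added after their values were seen. The methods of the study name a t-test, which was run as an alternative, beside other scalings, filters, fits and the removal of each array. Promoters came from RefSeq (GRCr8), which held 43 of 54 members. Proteins and probe sequences were not used here. The labels call the arrays biological replicates and name no pairs, and the main fit treated them as unpaired. After removal of group means, arrays with the same number correlated between -0.17 and 0.196 and others between -0.13 and 0.217. With 3 arrays a group, these ranges cannot decide whether replicate numbers mark pairs.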

Additional observations from a re-analysis of the deposited data

Results flagged for a closer look

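Rab31 was called different between the 2 models, by a test of the difference itself. Its log2 FC of QDBS against YDBS was -1.04 (limma FDR = 0.0322), with all 3 QDBS arrays below all 3 YDBS arrays. The call was lost under 9 of 20 alternatives, among them the t-test of the methods (FDR 0.351). Groups of 3 arrays are too small for a test of single outlying samples.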

How the results depend on the processing

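Counts of called Rab genes were recomputed under 20 alternatives, and the log2 FC of no Rab gene followed through them changed sign. In QDBS the 8 genes called higher became 5 of 54 with arrays centred on the 75th percentile, beside 5.33% of all genes. They became 4 of 54 with the t-test of the methods, beside 6.8%, and 15 of 54 (27.8%) with no limit on the fold, beside 20%. The 0 called lower became 1 with that centring, 1 after quantile normalization and 1 after cyclic loess (Rab37 each time). Of all genes, 7.65%, 2.66% and 1.95% were called lower there. With no limit on the fold 9 of 54 were lower in QDBS (16.7%), beside 22.9%. In YDBS the 14 called higher became 8 of 54 (14.8%) after quantile normalization, beside 8.03% of all genes. The 0 called lower in YDBS became 2 of 54 with the 75th percentile (Rab3a and Rab40b), beside 9.01%. They became 8 of 54 (14.8%) with no limit on the fold, beside 25.3%. The 1 gene called lower in QDBS than in YDBS became 0 after quantile normalization, when the control arrays were left out of the fit and with the t-test. The causes were not tested. Without single arrays the counts called higher were 5 to 10 in QDBS and 14 to 14 in YDBS, the count lower in QDBS than in YDBS was 0 to 2, and the other counts were 0 to 0. With the replicate number as a block the counts were 8, 14 and 1, so the block changed no count. Rab8b, Rab9a and Rab27a were called in both models under all 20 alternatives, as were Rab7a, Rab10, Rab14 and Rab18 in YDBS. In QDBS the call was lost for Rab21 under 6 alternatives (log2 FC down to 0.65), Rab10 under 4, Rab1a under 2, Rab14 under 1 (the t-test, FDR 0.0555) and Rab7a under 1. In YDBS it was lost for Rab6a under 5, Rab27b under 4 (FDR up to 0.0905), Rab24 and Rab2a under 3 each, Rab21 under 2, and Rab1a and Rab31 under 1 each. The 23 and 28 of 123 genes of the Rab cycle called higher became 14 and 12 with the 75th percentile. Of all genes, 5.33% and 5.95% were called higher there. With no limit on the fold they became 43 (35%) and 45 (36.6%), beside 20% and 20.5% of all genes. At that limit 17 of the 123 were lower in each model (13.8%), beside 22.9% and 25.3% of all genes. The limits are 3 arrays a group, 1 shared control group, and signal that differs in its distribution between control and model arrays.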
